A study of Arabidopsis thaliana with 6 samples.

Results

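The transcripts described here are those encoded by the chloroplast and by the mitochondrion of Arabidopsis thaliana, chosen as every row of the deposited expression table whose gene identifier starts with ATCG (chloroplast) or ATMG (mitochondrion). These are 93 of 21981 rows, 32 of the chloroplast and 61 of the mitochondrion. Leaves of 3 transgenic lines, titled Transgenic line 1 to 3, were compared with leaves of 3 wild-type samples, titled as replicates 1 to 3, all of cultivar Col-0. All plants were 4 weeks old, grown on sterile medium for a week and then in soil with long days. The transgene and its promoter are not named in the labels, the number of insertions per line is not given, and the protocol mentions drought in the same words for all 6 samples, so the groups cannot be told apart by watering. No label says that the wild-type replicates were separate plants or pools, and the p-values therefore rest on differences among these samples that may be technical.

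Chloroplasts and plant mitochondria keep small genomes of their own, which encode core proteins of photosynthesis and respiration together with parts of the machinery that expresses them. The other subunits of these complexes, and the sigma factors and phage-type polymerases that transcribe the organelle genes, are encoded in the nucleus and imported. Most organelle messengers carry no stable poly(A) tail, and in both organelles a tail added after transcription marks an RNA for degradation. The libraries were made from RNA held on oligo(dT) beads, so the values below describe the part of the organelle RNA that this selection kept and not its whole amount in the leaf.

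The identifiers of the table are listed without names. The TAIR10.1 annotation of RefSeq uses other identifiers for the organelle genomes, so none of the 93 has an entry of its own there, and a description is at hand for 10 of them, through notes on nuclear genes that resemble them. The remaining members are given by identifier alone. Values are FPKM as the authors deposited them, fragment numbers scaled for transcript length and library size, and levels can therefore be set side by side between genes per length. Read counts were not part of the table, so the depth is unknown and precision rests on the 3 samples per group.

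A further limit concerns the mitochondrial rows. In the TAIR10.1 assembly, 72.9% of the 367808 bases of the mitochondrial genome have a nuclear copy of at least 100 bases and 99% identity, and the longest such stretch has 50638 bases. Nearly all of it lies on chromosome 2, which alone covers 72.7% of the mitochondrial genome. For the chloroplast genome the share is 0.4% of 154478 bases. The submitters list TAIR10, and the mitochondrial sequence of that release was not compared here. The coding sequence of the mitochondrial gene atp9, which encodes a membrane subunit of ATP synthase, is shown because it also stands, with 0 mismatches, inside a nuclear gene that has a row of its own. It lies at MT:270961-271185 on the minus strand (RefSeq, TAIR10.1), in lower case because no part of it differs.
atp9 of the mitochondrial genome: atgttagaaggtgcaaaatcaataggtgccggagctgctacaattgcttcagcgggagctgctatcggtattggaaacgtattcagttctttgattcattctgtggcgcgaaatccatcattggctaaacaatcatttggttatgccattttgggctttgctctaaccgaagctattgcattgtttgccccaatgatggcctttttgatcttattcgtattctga
These 225 bases are bases 262 to 486 of the nuclear gene AT2G07671, at chr2:3251566-3252341 on the minus strand, whose whole length of 776 bases recurs in the mitochondrial genome. The genomic sequence alone therefore does not tell which genome a read from inside this stretch came from. The letters of the reads, which can differ from the genome, were not examined.

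The leaf identity of the samples was checked with marker genes. The 5 leaf markers (RBCS1A, RCA, LHCB2.1, CA1 and PSBO1) lay between 1334 and 14179 FPKM in the transgenic lines and between 770 and 9665 FPKM in wild type. COBL9 and PIN2, defining genes of roots, were at most 0.227 FPKM in the transgenic lines and at most 0.685 FPKM in wild type, and the seed storage gene CRA1 was at most 0.0456 FPKM in the transgenic lines and 0.0208 FPKM in wild type. Summed over each list, 3 root markers reached 6.52 to 7.40 FPKM in the transgenic lines and 8.48 to 9.94 in wild type, nearly all from SCR. The 3 flower markers reached 1.95 to 4.29 FPKM in the transgenic lines and 3.88 to 4.34 in wild type, and the 2 seed markers 2.81 to 5.23 in the transgenic lines and 4.82 to 7.31 in wild type. The meristem gene STM read 9.52, 10.1 and 9.95 FPKM in the transgenic lines, against 27.3, 26.2 and 28.8 FPKM in wild type, and its part in the results below was not tested. Summed over all rows, FPKM were 1261802 to 1278449 in the transgenic lines and 970376 to 982620 in wild type. Rescaling every sample to the same total (TPM) moves the median log2 difference of all tested genes to -0.31, against 0.03 on the values as deposited.

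Chloroplast-encoded transcripts were higher in the transgenic lines at many members and lower at none. In bulk leaf samples, a difference in the number of cells or chloroplasts of a kind and one in the RNA of each cannot be told apart. Of the 32 rows, 25 averaged 1 FPKM or more and were tested with limma on log2(FPKM + 1), with Benjamini-Hochberg adjustment over all 17093 genes tested and a threshold of 0.05. Of these, 11 were higher in the transgenic lines, 0 were lower and 14 did not pass. Over all genes tested, 40.7% passed in either direction, 25.0% as higher and 15.7% as lower. After rescaling to TPM, 10 chloroplast rows were higher and 0 lower, beside 11.2% higher and 48.9% lower over all genes tested with TPM. Among the calls alone over all genes, 18.6% were higher with TPM and 61.5% as deposited. The median log2 difference of the tested chloroplast rows was 0.93 as deposited and 0.62 with TPM, beside the all-gene medians of 0.03 and -0.31. The filter let 4 of the 25 rows pass although their wild-type mean was under 1 FPKM, and none of these 4 is among the 11.

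The row ATCG00020 had the highest level of those found in all 6 samples. It read 230.1, 78.9 and 266.4 FPKM in transgenic lines 1, 2 and 3, against 37.0, 42.2 and 29.7 FPKM in wild-type replicates 1, 2 and 3. Every line lay above every wild-type sample, and line 2 lay far below the other lines. The log2 difference was 2.20 ± 0.383 (SE, n = 3 each), with a limma adjusted p of 0.00151.

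ATCG00490 had the same order of lines. It read 44.1, 14.9 and 48.3 FPKM in the transgenic lines, against 10.4, 10.1 and 8.99 FPKM in wild type. The wild-type samples were close together, and line 2 stood much nearer to them than lines 1 and 3 did. The log2 difference was 1.60 ± 0.36 with a limma adjusted p of 0.00635.

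ATCG00280 read 29.4, 15.4 and 33.0 FPKM in the transgenic lines, against 6.94, 9.03 and 9.24 FPKM in wild type. Here too line 2 was the lowest line and the groups did not overlap. The log2 difference was 1.46 ± 0.246, with a limma adjusted p of 0.00126. ATCG00220 read 49.4, 30.8 and 53.9 FPKM in the transgenic lines, against 21.0, 6.73 and 7.92 FPKM in wild type. Wild-type replicate 1 was well above the other wild-type samples without reaching the lines, and the log2 difference was 1.95 ± 0.363 with a limma adjusted p of 0.00223.

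The consecutive identifiers ATCG00330, ATCG00340 and ATCG00350 were all higher in the transgenic lines. ATCG00330 read 12.4, 9.85 and 15.6 FPKM in the transgenic lines, against 2.41, 2.80 and 2.86 FPKM in wild type, and it had the smallest error of the chloroplast rows that passed, with a log2 difference of 1.86 ± 0.164 and a limma adjusted p of 2.1e-05. ATCG00340 read 8.28, 4.58 and 9.21 FPKM in the transgenic lines, against 2.00, 1.60 and 2.69 FPKM in wild type. ATCG00350 read 5.75, 5.24 and 8.31 FPKM in the transgenic lines, against 1.67, 1.36 and 2.07 FPKM in wild type. In none of the 3 did the groups overlap, and line 3 was the highest each time. Their log2 differences were 1.40 ± 0.241 for ATCG00340 and 1.45 ± 0.191 for ATCG00350.

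ATCG00840 had another order of lines. It read 35.7, 33.6 and 20.3 FPKM in the transgenic lines, against 13.4, 16.1 and 17.6 FPKM in wild type, so that line 3, not line 2, was the lowest. Its log2 difference was 0.85 ± 0.195 with a limma adjusted p of 0.0071, and with TPM it was 0.49 with an adjusted p of 0.0522, which does not pass. ATCG00730 read 14.9, 14.8 and 33.1 FPKM in the transgenic lines, against 7.75, 2.77 and 4.95 FPKM in wild type. Lines 1 and 2 were nearly equal here and line 3 stood above them, with a log2 difference of 1.82 ± 0.352.

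ATCG00670 is described by a reference note as plastid-encoded CLP P, a proteolytic subunit of the chloroplast Clp protease. It read 17.4, 12.0 and 12.2 FPKM in the transgenic lines, against 5.46, 5.44 and 9.96 FPKM in wild type. The groups did not overlap, though wild-type replicate 3 came close to line 2, and the log2 difference was 0.93 ± 0.223 with a limma adjusted p of 0.00898. The nuclear gene that resembles it, AT1G12410 (CLP2, named CLP protease proteolytic subunit 2 in the reference), differed by 0.39 ± 0.0559 on the same scale. That value is as deposited and none with TPM is given for this gene. TPM moves the all-gene median from 0.03 to -0.31, so the 0.39 may depend on the scaling.

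ATCG00580 passed the test on weaker ground. It read 17.5, 17.0 and 9.67 FPKM in the transgenic lines, against 10.8, 0 and 1.82 FPKM in wild type. Wild-type replicate 1 lay above line 3, and wild-type replicate 2 was listed at 0. The log2 difference was 2.25 ± 0.721 with a limma adjusted p of 0.0336. The call was lost in 8 of 16 alternatives, among them leaving out any 1 of the lines or wild-type replicate 2 or 3.

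**Figure D1:**
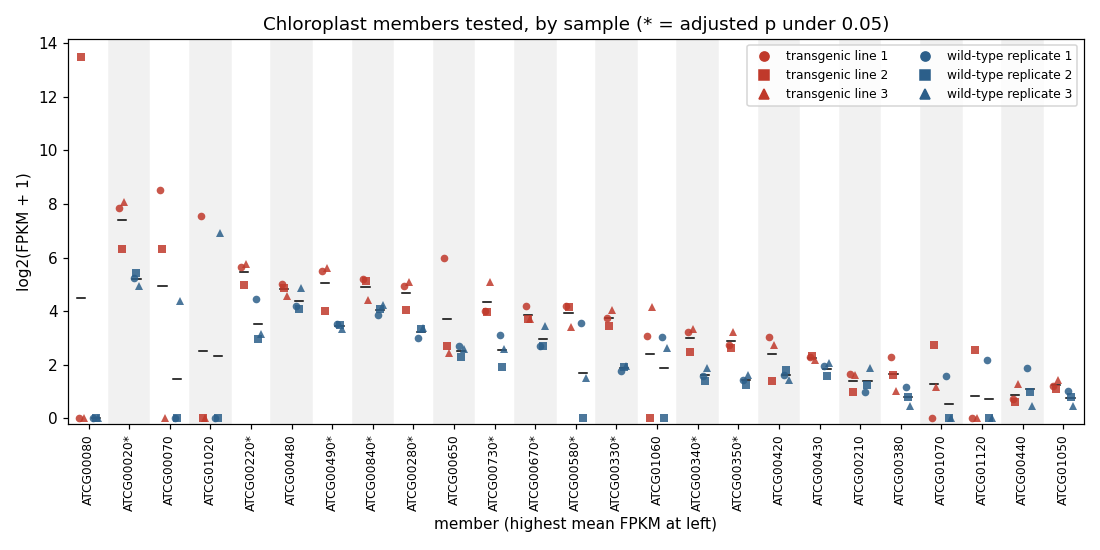
Level of each of the 25 tested chloroplast members as log2(FPKM + 1), with members along the horizontal axis from the highest mean at left, transgenic lines in red at left and wild-type samples in blue at right within each member, symbols for samples 1 to 3 and a bar for the group mean. Marked members passed the test, and their red points lie above the blue ones except in ATCG00580.

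A few chloroplast rows held large values in some samples and 0 in others. ATCG00080 was listed at 11488.9 FPKM in line 2 and at 0 in lines 1 and 3 and in all 3 wild-type samples. That single value ranked 8 among all rows in line 2 and made up 96.8% of the chloroplast sum of that line. No fold is given for it, since wild type is at 0 throughout.

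ATCG00070 read 363.0, 79.8 and 0 FPKM in the transgenic lines, against 0, 0 and 19.6 FPKM in wild type. The lines are on either side of wild-type replicate 3, and the row did not pass (adjusted p of 0.193, limma), although without line 3 it did, with an adjusted p of 0.00846. ATCG01020 read 188.3, 0 and 0 FPKM in the transgenic lines, against 0, 0 and 121.1 FPKM in wild type, so 1 sample of each group carried all of it. In the whole table, 4 rows had a mean above 50 FPKM and a 0 in at least 1 sample, and these 3 chloroplast rows are among the 4. A 0 beside such values can be a failed estimate, and which it was here was not tested.

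The other chloroplast rows that were tested did not pass. ATCG00480, the sixth by mean level, read 31.3, 28.4 and 22.5 FPKM in the transgenic lines, against 17.5, 15.9 and 28.3 FPKM in wild type. Wild-type replicate 3 reached the level of the lines, and the log2 difference was 0.43 ± 0.2 with a limma adjusted p of 0.121, against 0.00856 without that replicate. ATCG00440 was the single tested chloroplast row with a lower mean in the transgenic lines, with 0.668, 0.520 and 1.44 FPKM, against 2.68, 0.999 and 0.366 FPKM in wild type. Its groups overlapped, and its log2 difference of -0.23 ± 0.365 did not pass (limma adjusted p of 0.648).

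Some rows outside the naming rule were picked after their values were seen. ATCG00650 read 62.0, 5.43 and 4.44 FPKM in the transgenic lines, against 5.49, 3.85 and 5.04 FPKM in wild type, so that line 1 alone stood apart, and it did not pass (limma adjusted p of 0.262). ATCG00420 read 7.31, 1.61 and 5.76 FPKM in the transgenic lines, against 2.08, 2.46 and 1.67 FPKM in wild type, with line 2 below all wild-type samples. It did not pass with all 6 samples (limma adjusted p of 0.129) and did without line 2 (adjusted p of 0.000962). A reference note describes ATCG00430 as photosystem II reaction center protein G. The nuclear gene with that note, AT5G11770, is itself named NADH-ubiquinone oxidoreductase 20 kDa subunit, so the photosystem description is doubtful. ATCG00430 read 3.89, 4.01 and 3.54 FPKM in the transgenic lines, against 2.83, 2.01 and 3.16 FPKM in wild type. Its groups did not overlap, yet its log2 difference of 0.40 ± 0.167 did not pass (limma adjusted p of 0.0848).

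All transgenic values lay above all wild-type values in 12 of the 25 tested chloroplast rows, and all below in 0. Among the 12 is ATCG01050, which averaged 0.712 FPKM in wild type and 1.39 FPKM in the transgenic lines. It thus passed the filter of 1 FPKM only through the transgenic lines. Over all genes tested, 30.2% had every transgenic value above every wild-type value. Among the 7 untested rows, all with a mean under 1 FPKM, 3 had every transgenic value above wild type and 0 had every value below. No share over all genes is given beside the counts of untested rows or of rows with every value below. These counts are therefore descriptive. The identifiers ATCG01010 to ATCG01130, grouped after their values were seen, held 10 rows, of which 5 were tested and 0 were higher or lower. Their median level was 1.01 FPKM, against 9.93 FPKM for the 22 rows from ATCG00020 to ATCG00840, which held all 11 calls. A 0 in at least 1 sample occurred in 7 of the 10 and in 3 of the 22.

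**Figure D2:**
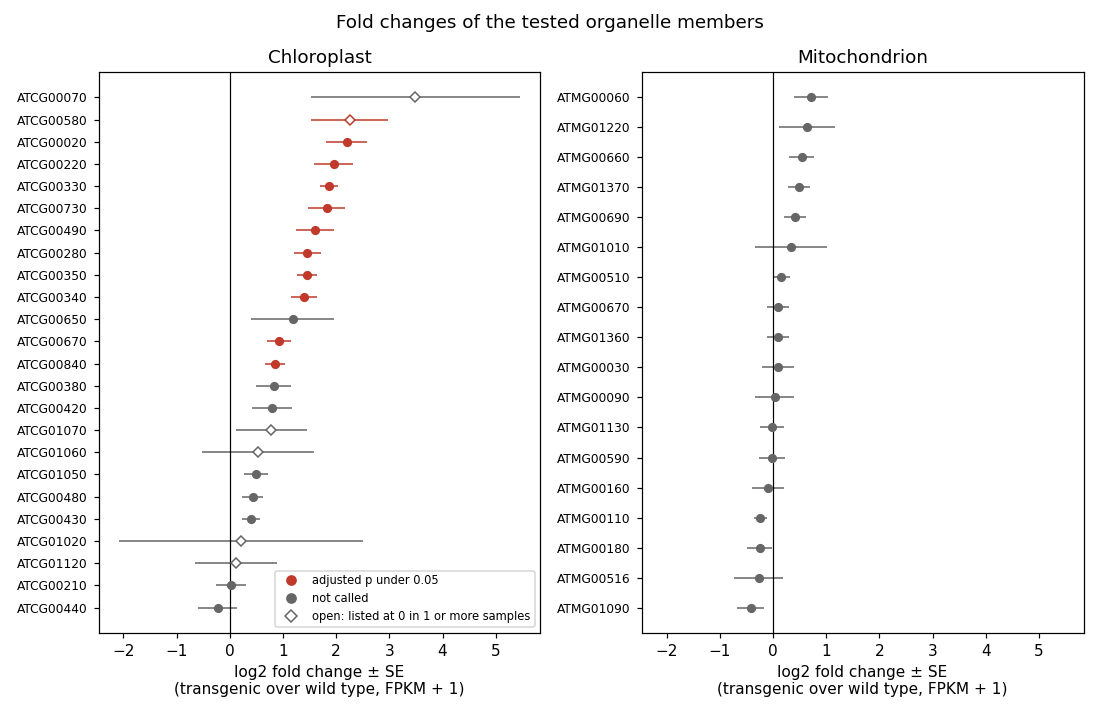
Log2 fold change, transgenic over wild type, with SE as bars, for the tested chloroplast members (left) and mitochondrial members (right), from limma on log2(FPKM + 1). ATCG00080 is left out, as it is listed at 0 in all wild-type samples, and the 11 members in red passed the test, all of them to the right of 0 and all of the chloroplast.

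The lines differed among themselves, but each line is 1 sample, so a line and its library cannot be told apart. In 9 of the 11 called chloroplast rows line 2 was the lowest line, and in the other 2 it was line 3. Near ties were counted too, as in ATCG00670 with 12.0 and 12.2 FPKM in lines 2 and 3. Line 3 was the highest in 8 of the 11 and line 1 in 3. Over the 18 tested rows that were above 0 in every sample, the median deviation from the wild-type mean was 1.45 in line 1, 0.78 in line 2 and 0.96 in line 3, and it was 0.03, -0.12 and 0.07 in wild-type replicates 1, 2 and 3, all on the log2(FPKM + 1) scale. Over all tested genes the same medians lay between -0.02 and 0.04 in every sample.

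Each line therefore lay above wild type, and line 1 was the highest by this measure. The most common ratio between samples over low rows, with a mean under 1 FPKM, was taken as the relative worth of 1 read. By this measure the worth of 1 read in FPKM was 1.27 times as large in line 1 as in line 2. In line 3 it was 1.39 times as large as in line 2. These estimates rest on 5.35% and 4.58% of the low rows, and no read was counted. Against wild-type replicate 1, the same worth was 1.28, 1.02 and 1.43 in lines 1, 2 and 3. It was 1.01 and 0.63 in wild-type replicates 2 and 3, on 2.36% to 3.6% of the low rows. The part of these library differences in the order of the lines, or in the differences between the groups, was not tested. The order of members by level was much alike in all samples. Across the 18 chloroplast rows above 0 everywhere, Spearman's rho between samples was 0.81 to 0.90 within the lines, 0.84 to 0.95 within wild type and 0.79 to 0.91 between the groups, a description over rows that share their libraries.

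**Figure D3:**
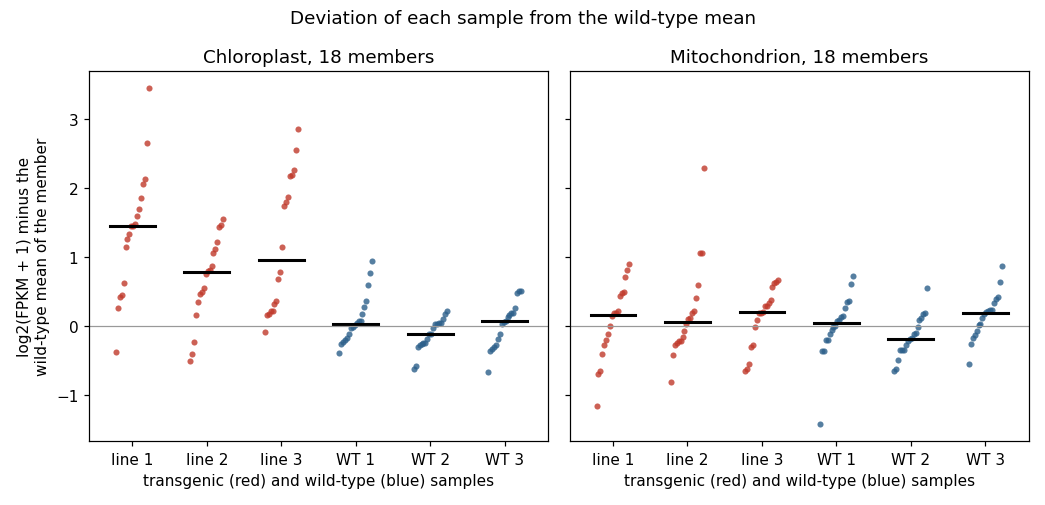
Deviation of each member's log2(FPKM + 1) from its wild-type mean, 1 point per member, in the 3 transgenic lines (red, left) and the 3 wild-type samples (blue, right), for the 18 chloroplast and 18 mitochondrial members tested and above 0 in all samples, with the median as a bar. The chloroplast medians are 1.45, 0.78 and 0.96 in lines 1 to 3 and near 0 in wild type, and the mitochondrial medians stay within 0.20 of 0 in all samples.

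Mitochondrion-encoded transcripts were scarce and passed the test at no row. Of the 61 rows, 43 had a mean under 1 FPKM and were not tested, 31 were listed at 0 in some samples, and 2 (ATMG00710 and ATMG01350) were at 0 in all 6. Of the 18 tested rows, 0 were higher and 0 were lower by limma, beside the 40.7% of all genes that passed. At an unadjusted p under 0.05 the count was 1. The median log2 difference was 0.09, with 11 positive and 7 negative values between -0.42 and 0.71. With TPM the median was -0.17, with 6 positive values, and 2 rows were lower (ATMG00110 and ATMG01090), beside 48.9% lower over all genes with TPM. The all-gene medians beside these mitochondrial ones were 0.03 as deposited and -0.31 with TPM.

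ATMG01370 was the highest mitochondrial row and the only one with a mean above 10 FPKM. It read 17.4, 11.2 and 16.4 FPKM in the transgenic lines, against 8.79, 8.87 and 13.7 FPKM in wild type. Wild-type replicate 3 lay above line 2, and the log2 difference was 0.49 ± 0.198 with a limma adjusted p of 0.0812. Without line 2 the adjusted p was 0.0216, and without wild-type replicate 3 it was 0.0245. ATMG00030 read 10.2, 5.86 and 6.88 FPKM in the transgenic lines, against 6.83, 4.14 and 11.4 FPKM in wild type, with full overlap.

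ATMG01090 is described by a reference note as ATP synthase 9 of the mitochondrion, through the nuclear gene AT2G07777. It is not the identifier that the reference pairs with AT2G07671 and its atp9 sequence, which is ATMG01080 and has no row. ATMG01090 read 8.98, 4.00 and 4.58 FPKM in the transgenic lines, against 8.61, 5.86 and 9.14 FPKM in wild type. Lines 2 and 3 lay below all wild-type samples and line 1 among them. The log2 difference was -0.42 ± 0.261 with a limma adjusted p of 0.235, and it was -0.73 with an adjusted p of 0.0188 without line 1. Since nuclear copies cover most of the mitochondrial genome, reads of this row and of chromosome 2 may not be separable.

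ATMG00110 had the smallest error of the tested mitochondrial rows. It read 4.93, 4.86 and 4.48 FPKM in the transgenic lines, against 6.13, 5.75 and 5.48 FPKM in wild type. All lines were below all wild-type samples, the single tested mitochondrial row with that pattern, whose share over all genes is not given. The log2 difference of -0.24 ± 0.119 did not pass (limma adjusted p of 0.147), and with TPM it was -0.55 with an adjusted p of 0.00387. ATMG00660 had the opposite pattern, with 4.66, 3.28 and 3.19 FPKM in the transgenic lines, against 3.14, 1.29 and 2.49 FPKM in wild type. It was the single tested mitochondrial row with all lines above all wild-type samples, beside 30.2% of all genes tested. Its log2 difference of 0.54 ± 0.239 did not pass either (limma adjusted p of 0.105).

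In the other mitochondrial rows named for the size of their difference the groups overlapped. ATMG00060 read 2.02, 3.68 and 2.50 FPKM in the transgenic lines, against 2.43, 0.434 and 1.28 FPKM in wild type, with a log2 difference of 0.71 ± 0.317 and a limma adjusted p of 0.105. Without wild-type replicate 1 the adjusted p was 0.0272. ATMG01220, described as an unknown protein, read 4.03, 8.19 and 6.05 FPKM in the transgenic lines, against 0.654, 5.48 and 7.06 FPKM in wild type, where replicate 1 alone was low. ATMG00516 read 0.315, 3.44 and 1.43 FPKM in the transgenic lines, against 3.83, 1.59 and 1.00 FPKM in wild type.

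ATMG00180, described as a cytochrome C biogenesis protein, read 0.849, 0.832 and 1.61 FPKM in the transgenic lines, against 1.71, 0.930 and 1.83 FPKM in wild type, with a log2 difference of -0.25 ± 0.241. ATMG00510 read 4.16, 3.79 and 4.73 FPKM in the transgenic lines, against 3.31, 3.32 and 4.49 FPKM in wild type, with a log2 difference of 0.16 ± 0.156. Neither row passed, and in both the groups overlapped.

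Some single samples stood apart, as seen after the values were known. ATMG01010, an unknown conserved protein, read 0.563, 11.0 and 0.605 FPKM in the transgenic lines, against 0.917, 1.68 and 1.89 FPKM in wild type, so that line 2 alone was high. ATMG01210 had a mean of 0.706 FPKM and was not tested. It was listed at 0 in all 3 transgenic lines, against 0.827, 1.50 and 1.91 FPKM in wild type. It is 1 of 4 untested mitochondrial rows with every transgenic value below every wild-type value, and 0 untested rows had the reverse. The share of all untested genes with such a pattern was not computed, so no direction is read from these counts. When the filter on low values was dropped, 3 of these rows were lower (ATMG01210, ATMG00570 and ATMG00940). These are 3 of 59 mitochondrial rows then tested, beside 2751 lower of 21420 over all genes.

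**Figure D4:**
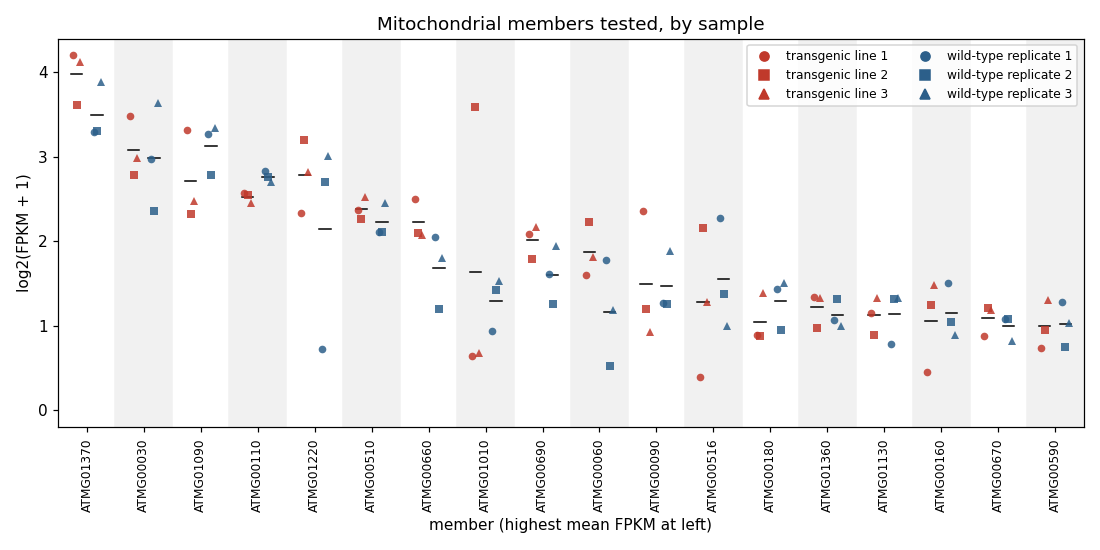
Level of each of the 18 tested mitochondrial members as log2(FPKM + 1), with members along the horizontal axis from the highest mean at left, transgenic lines in red at left and wild-type samples in blue at right within each member, and a bar for the group mean. Red and blue points overlap in 16 of the 18, and 0 passed the test.

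The order of the mitochondrial rows by level varied between samples, also within a group. Across the 18 rows above 0 everywhere, Spearman's rho between samples was 0.49 to 0.77 within the lines, 0.38 to 0.75 within wild type and 0.44 to 0.86 between the groups. Their median deviation from the wild-type mean was 0.16, 0.07 and 0.20 in lines 1, 2 and 3, and 0.04, -0.18 and 0.19 in wild-type replicates 1, 2 and 3, on the log2(FPKM + 1) scale. All 3 lines were close to or below wild-type replicate 3.

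The nuclear copy of the mitochondrial genome was read beside it. Of 32 rows named AT2G076 to AT2G078, 30 lie over 90% within sequence shared with the mitochondrial genome, with a median level of 0.306 FPKM. Only 4 of the 30 were tested, 0 passed by limma and 0 had an unadjusted p under 0.05, with log2 differences from 0.12 to 0.60. AT2G07671, which contains the atp9 sequence shown above, had the highest level, at 36.4, 10.3 and 16.8 FPKM in the transgenic lines, against 18.4, 11.0 and 23.7 FPKM in wild type. Its values overlapped widely, and FPKM values do not show how many of its reads came from the organelle. AT2G07689, AT2G07715 and AT2G07774 averaged 3.59, 1.22 and 3.20 FPKM in the transgenic lines, against 3.19, 1.06 and 1.78 FPKM in wild type.

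Summed over the rows of a genome, every line exceeded every wild-type sample for the chloroplast, and the groups overlapped for the mitochondrion. The chloroplast sum was 1140.1, 11864.0 and 575.2 FPKM in transgenic lines 1, 2 and 3, against 168.8, 127.7 and 287.7 FPKM in wild-type replicates 1, 2 and 3. All lines were above all wild-type samples, and line 2 owed its place as the highest line to ATCG00080. Without that row its sum was 374.9 FPKM, the lowest of the lines and still above all wild-type samples. The mean log2 difference was 3.43, and 1.77 without ATCG00080. The exact two-sided permutation p was 0.10 in both, the smallest that 3 samples against 3 allow, so this design cannot reach 0.05. Without line 2 altogether the difference was 2.14.

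The mitochondrial sum was 86.1, 84.8 and 90.0 FPKM in the transgenic lines, against 68.4, 61.9 and 87.1 FPKM in wild type. Wild-type replicate 3 lay within the range of the lines. The mean log2 difference was 0.28 with an exact permutation p of 0.30, and with TPM it was -0.10. As a share of all FPKM, chloroplast rows held 0.0892%, 0.940% and 0.0452% in the transgenic lines, against 0.0173%, 0.0132% and 0.0293% in wild type. Mitochondrial rows held 0.00672% to 0.00707% in the transgenic lines, against 0.00638% to 0.00886% in wild type.

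The ratio of the chloroplast to the mitochondrial sum within a sample does not depend on how that sample was scaled, and it is the comparison of the genomes with each other. On the log2 scale it was 3.73, 7.13 and 2.68 in transgenic lines 1, 2 and 3, against 1.30, 1.04 and 1.72 in wild-type replicates 1, 2 and 3. All lines were above all wild-type samples, with a mean difference of 3.15 (exact two-sided permutation p of 0.10, the smallest possible). With the highest member of each genome left out it was 1.54, and over the members above 0 in all 6 samples, a choice made after seeing the data, it was 1.45. Without line 2 the difference was 1.84.

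Nuclear genes that serve the organelle genomes were read in 5 lists beside them. Of 51 listed genes, 47 had a row and 46 were tested, of which 18 were higher, 3 lower and 25 did not pass, beside 25.0% higher and 15.7% lower over all genes. These counts depend on the scaling, since with TPM 8 were higher and 24 lower, beside 11.2% higher and 48.9% lower over all genes with TPM. They also depend on single samples, since without any 1 of the 6 samples 12 to 18 were higher and 1 or 2 lower. The median log2 difference over the 46 was 0.13, beside 0.03 over all genes tested. A gene is named below as higher or lower on the values as deposited.

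Sigma factors direct the bacterial-type plastid polymerase to its promoters. Of 9 listed sigma factors and phage-type polymerases, 4 were higher, 3 lower and 2 did not pass, and with TPM 3 were higher and 4 lower. SIG5 read 14.0, 15.1 and 17.1 FPKM in the transgenic lines, against 10.4, 6.60 and 6.92 FPKM in wild type, a log2 difference of 0.89 ± 0.16 with a limma adjusted p of 0.00186. SIG1 read 71.8, 73.1 and 67.7 FPKM in the transgenic lines, against 42.8, 44.1 and 42.1 FPKM in wild type, a log2 difference of 0.71 ± 0.0589. In both the groups did not overlap, and in SIG5 wild-type replicate 1 stood above the other wild-type samples.

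SIG2 was higher by 0.60 ± 0.082 on the log2 scale, with 44.4, 50.1 and 54.5 FPKM in the transgenic lines, against 32.4, 31.4 and 33.1 FPKM in wild type. SIG4 was lower, with 15.8, 14.2 and 12.7 FPKM in the transgenic lines, against 18.3, 22.1 and 19.9 FPKM in wild type, and a log2 difference of -0.47 ± 0.107. These 4 sigma factors passed in the same direction in all 16 alternatives, TPM included. The other calls of the list, named here after their values were seen, were SIG6 as higher and the polymerase genes SCA3 and MGP3 as lower, and they passed in 5 of 16, 6 of 16 and 7 of 15 alternatives. SIG6 lost its call without line 1, line 3 or any 1 wild-type replicate, SCA3 without any 1 sample, and MGP3 without any 1 sample other than wild-type replicate 3.

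Of 10 tested proteins bound to the plastid polymerase, 1 was higher and 9 did not pass. This was PTAC7, with 180.1, 181.9 and 179.3 FPKM in the transgenic lines, against 132.9, 111.9 and 132.0 FPKM in wild type, and a log2 difference of 0.52 ± 0.0686 that was 0.15 with TPM and did not pass there (adjusted p of 0.0832). The list's median was 0.03. With TPM 0 of the 10 were higher and 8 lower, with a median of -0.32. Of 5 tested genes of organelle RNA turnover, 1 was higher, PNP (AT3G03710), the chloroplast polynucleotide phosphorylase that degrades and tails RNA. PNP read 23.3, 26.5 and 25.0 FPKM in the transgenic lines, against 21.0, 20.7 and 17.8 FPKM in wild type, a log2 difference of 0.32 ± 0.0919. With TPM 0 of the 5 were higher and 1 lower, with PNP at -0.05. The PNP call was lost without line 2, line 3 or wild-type replicate 3 (adjusted p of 0.0761, 0.0552 and 0.0713, limma).

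The nuclear genes for the small subunit of Rubisco, the enzyme whose large subunit the chloroplast encodes, were all higher, 3 of 3 tested. RBCS1A read 14179.4, 13773.6 and 14163.2 FPKM in the transgenic lines, against 9664.6, 9117.3 and 9278.7 FPKM in wild type, a log2 difference of 0.59 ± 0.0329. RBCS1B and RBCS2B differed by 0.66 ± 0.0387 and 0.57 ± 0.0687. These near-identical paralogs may share reads. With TPM all 3 still passed, at 0.21, 0.28 and 0.19 for RBCS1A, RBCS1B and RBCS2B. After quantile normalization or cyclic loess none of the 3 passed, and RBCS1A was at -0.06 after cyclic loess.

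Of 19 nuclear genes of the respiratory chain, 9 were higher, 0 lower and 10 did not pass, with a median of 0.16, beside 25.0% higher over all genes and their median of 0.03. With TPM 2 were higher and 11 lower, with a median of -0.22, beside 48.9% lower over all genes and their median of -0.31. AOX1A, the alternative oxidase that passes electrons to oxygen without the cytochrome complexes, read 107.6, 109.0 and 116.5 FPKM in the transgenic lines, against 36.3, 37.1 and 35.6 FPKM in wild type. The samples of each group were close together and the groups far apart, with a log2 difference of 1.58 ± 0.0574 and a limma adjusted p of 9.79e-08.

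CYTC-2, a cytochrome c, read 70.6, 59.3 and 69.9 FPKM in the transgenic lines, against 33.2, 31.1 and 43.6 FPKM in wild type, a log2 difference of 0.88 ± 0.124. AOX1A and CYTC-2 were the calls of this list that passed as higher in all 16 alternatives, with 1.21 and 0.51 under TPM. GAMMA CA1, a carbonic anhydrase-like subunit of complex I, was higher by 0.50 ± 0.0764 and the cytochrome c1 gene AT3G27240 by 0.32 ± 0.0776. With TPM neither passed, at 0.13 for GAMMA CA1 and -0.05 for AT3G27240.

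**Figure D5:**
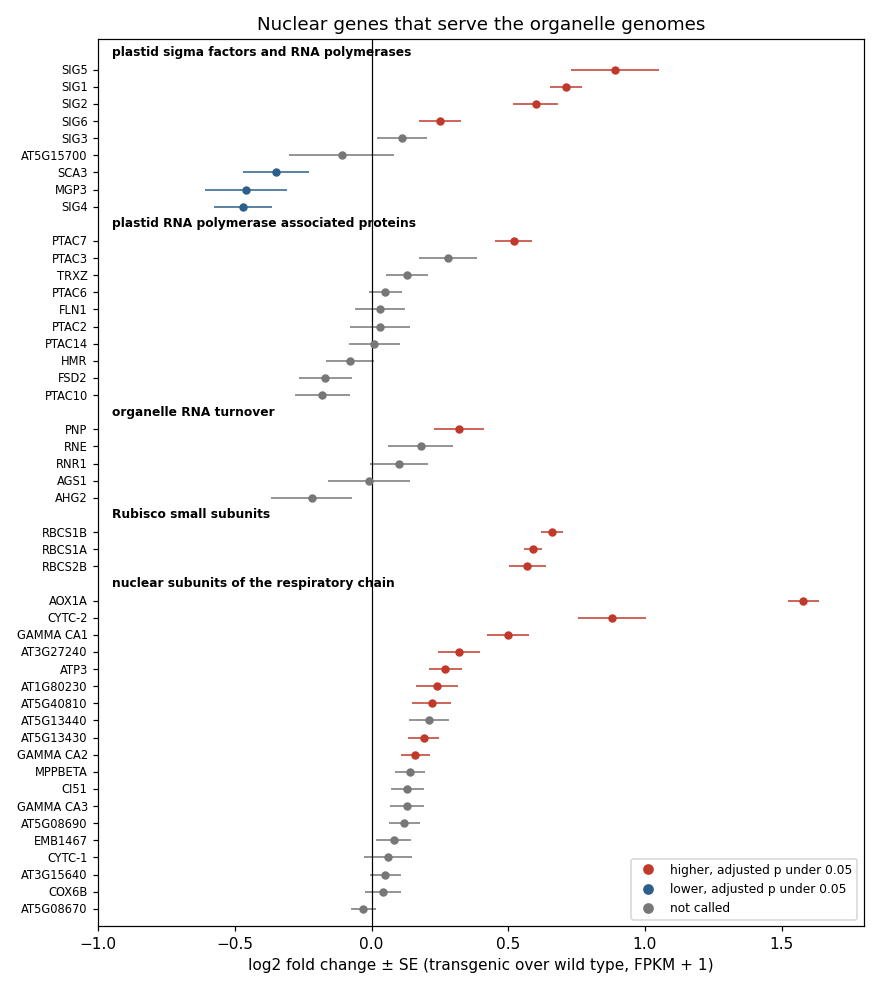
Log2 fold change, transgenic over wild type, with SE as bars, for the 46 tested nuclear genes in 5 lists, from limma on log2(FPKM + 1) of the deposited values. AOX1A stands farthest to the right at 1.58, and red and blue points mark the 18 higher and 3 lower genes, counts that became 8 and 24 with TPM.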

How the data were processed

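Leaf mRNA of 3 transgenic and 3 wild-type samples was selected on oligo(dT) beads, primed with random hexamers and sequenced on an Illumina HiSeq instrument, per the labels' protocols. The authors deposited 1 table of FPKM with a column per sample. TopHat2, DESeq and TAIR10 are listed in the submitters' processing notes, with no role or version. No source used here names the FPKM program, strand use or the handling of reads that match several places. The depth per sample is unknown, so no counting interval is given.

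Deposited values were turned into log2(FPKM + 1) and compared with limma 3.58.1 (R 4.3.3), with a mean-variance trend and no covariate. It was fitted to the 17093 genes averaging 1 FPKM or more, and calls needed an adjusted p (Benjamini-Hochberg) under 0.05. The fit was tested on simulated data. Differences on this scale understate the change of low genes. Sums and their ratio were compared by exact permutation tests (scipy 1.17.1). Shared sequence was found with BLAST+ 2.17.0 (alignments of at least 100 bases and 99% identity) in the RefSeq TAIR10.1 assembly. The members and lists were chosen with earlier results of these data known. Named in each genome were all called members, the 6 with the highest mean, the 4 tested members with the largest change in each direction, and from each nuclear list at most 4 called genes with the largest change. For the chromosome 2 loci, all 4 tested members were named. Of the 51 listed nuclear genes, 4 had no row. All 6 columns were used.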

Additional observations from a re-analysis of the deposited data

How the results depend on the processing

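The chloroplast count of higher calls was between 9 and 14 in all alternatives, with 0 lower calls in each. The 14, after quantile normalization and cyclic loess, included ATCG00380 and ATCG01050. Their wild-type means of 0.792 and 0.712 FPKM were under the filter, which they passed only through the transgenic lines. ATCG00380 was also called without line 3 and with the replicate number as a block. The chloroplast count was between 10 and 12 of 25 when 1 sample was left out. The 9 were of 15 rows with a mean of at least 5 FPKM, and 32 rows were tested without the filter. Over all genes, higher calls ranged from 1907 of 17093 with TPM to 4096 of 13015 with a mean of at least 5 FPKM. The mitochondrial count of higher calls was 1 after quantile normalization and cyclic loess and 0 to 1 without 1 sample. That of lower calls was 2 with TPM (over all rows or nuclear rows) and 3 without the filter on low values, where 59 rows were tested. It was 1 without the variance trend and 0 to 1 without 1 sample. Nuclear partner genes numbered 8 higher and 24 lower with either TPM, 7 higher after quantile normalization or cyclic loess, and 12 to 18 higher and 1 to 2 lower without 1 sample. The replicate numbers do not pair the samples (correlations of same-numbered samples' deviations were -0.035, 0.049 and -0.023). With the replicate number as a block, 12 chloroplast rows and 1 mitochondrial row were higher, and 17 nuclear partner genes were higher and 1 lower. The summed chloroplast difference was 2.14 to 4.32 and the log2 ratio of the sums 1.84 to 4.07 without 1 sample, the lowest of each without line 2. The mitochondrial sum turned to -0.10 with either TPM and to -0.11 as a median over members, and was 0.17 to 0.42 without 1 sample. Of the rows named or counted as calls, these changed sign. ATCG01020 ranged from -2.31 to 2.52, ATCG00440 from -0.56 to 0.15, ATMG00030 from -0.22 to 0.41, ATMG01220 from -0.07 to 1.07, ATMG00516 from -0.71 to 0.17, ATMG01010 from -0.63 to 0.84 and AT2G07671 from -0.33 to 0.53 without 1 sample. ATCG00440 was at 0.05 after quantile normalization. With TPM from all or from nuclear rows, ATMG00030 was at -0.24 and -0.23, ATMG00510 at -0.14 in both, AT3G27240 at -0.05 and -0.04, and AT3G03710 (PNP) at -0.05 and -0.04. AT2G36990 (SIG6) was at -0.11 in both, AT1G47260 (GAMMA CA2) at -0.22 and -0.21, AT5G13430 at -0.19 and -0.18, AT5G40810 at -0.15 in both, AT1G80230 at -0.14 and -0.13 and AT2G33040 (ATP3) at -0.11 and -0.10. Of these, AT1G47260 and AT5G13430 passed as lower with TPM (limma adjusted p of 0.00683 and 0.0218). AT2G07671 was at -0.22, AT2G07689 at -0.16 and AT2G07715 at -0.08 with either TPM. After quantile normalization and after cyclic loess, AT1G47260 was at -0.08 and -0.07, AT5G13430 at -0.02 and -0.03, AT5G40810 at -0.03 and -0.02 and AT2G33040 at -0.02 in both. AT1G67090 (RBCS1A) was at -0.06 after cyclic loess. The cause of these changes was not tested.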
